A study of Mus musculus with 5 samples.

Results

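The genes examined were those of the SUN proteins *Sun1* and *Sun2* and of the nesprins *Syne1*, *Syne2* and *Syne3*, measured in lenses of newborn mice at postnatal day 0. Every probe that the platform annotation assigns to 1 of these 5 genes was taken, which gave 20 of the 34885 probes with 1 annotated gene. *Sun1* and *Sun2* had 2 probes each, *Syne1* had 7, *Syne2* had 6 and *Syne3* had 3. The study compared lenses deficient in the RNA-binding protein Celf1 with control lenses on Illumina arrays, 3 mutant and 2 control, and each biological replicate pooled 2 lenses. The mutant mice, Celf1cKO/lacZKI with the Cre line Pax6GFPCre, carried 1 conditional and 1 germline knockout allele of *Celf1*. The labels give the control mice as wild-type on a mixed background of C57BL/6J and FVB, whereas the methods describe controls with floxed *Celf1* alleles or with Pax6GFPCre and intact *Celf1*. Which of these the 2 control arrays hold was not given in the sources used here. Because Cre was expressed in the lens but the lacZKI allele was inactive in every tissue, the mutants were not purely lens-specific, and because whole lenses were measured, fewer cells of a type and less RNA per cell cannot be told apart.

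SUN proteins sit in the inner nuclear membrane and nesprins mostly in the outer one, and both families join in the space between the membranes to form the LINC complex. On the nuclear side, SUN proteins contact the lamina, and on the cytoplasmic side nesprins bind actin, microtubule motors or plectin, so that the complex moves and anchors the nucleus. Lens fiber cells elongate greatly and later degrade their nuclei, and in other tissues the complex is known for placing nuclei in muscle, neurons and migrating cells.

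The mutant arrays fell into 2 kinds. Mutant arrays A and B gave readings between -3.2 and 2.9 for the 4 *Xist* probes and 206.9 and 177.3 for 1 of the 2 probes of *Eif2s3y*, a gene of the Y chromosome, which read between 1.1 and 4.4 on mutant array C and both controls. The other *Eif2s3y* probe read 7.6 to 10.4 on all 5 arrays. On mutant array C the 4 *Xist* probes read 90.3 to 263.5, and for each probe both controls were higher, at 136.3 to 440.6. By these readings mutant arrays A and B look male and both controls look female, so sex and genotype cannot be told apart between them. Mutant array C lacked the Y-linked signal but did not fully match the controls in *Xist*. Values for mutant array C alone are therefore given for the brightest *Sun1*, *Syne1* and *Syne3* probes and for the partner genes that passed; in that fit the spread is estimated from the 2 controls only and is taken to hold for the single mutant array as well. The targeted gene, *Celf1*, was lower on the mutant arrays by 1.38 on the log2 scale for its brightest probe (limma adjusted p = 6.06e-04 over all probes) and also by 2 further probes, but 1 probe (ILMN_2726496), of another transcript record, had a value of 0.47 (adjusted p = 0.121) and differed from the other *Celf1* probes (diffSplice adjusted p = 5.26e-08). At an adjusted p under 0.05 by the brightest probe of a gene, 4 of 11 measured lens fiber cell markers and 2 of 10 lens epithelium markers were lower in the mutant, against 2.66% of all genes. The marker lists were chosen with earlier results of these data known, so these counts are a description. The summed intensity of the epithelium markers was 1847 to 2864 on mutant and 3311 to 3621 on control arrays. Red blood cell markers summed to between 3967 and 12032 on mutant and between 3860 and 5546 on control arrays. Markers of skeletal muscle, in which nesprins are abundant, summed to 77.1 to 87.1 on mutant and 64.4 to 73.5 on control arrays. The muscle markers were dim, since 7 of the 11 measured had a mean under 10 and 5 read at or below 0 on some array. Mutant and control arrays did not overlap in the epithelium or the muscle sum, where 30.9% of all single probes did not overlap either. They overlapped in the red blood cell sum and in the fiber marker sum, which was 156405 to 196528 on mutant and 194922 to 197710 on control arrays. Most of the fiber sum came from crystallin genes, none of which passed, so it hardly reflects the 4 fiber markers that were lower. Whether any of these sums had a part in the values below was not tested.

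None of the 20 SUN and nesprin probes differed between mutant and control lenses at an adjusted p of 0.05 (limma, two-sided, Benjamini-Hochberg over all 34885 probes), against 4.28% of all probes. The smallest adjusted p was 0.166. At an unadjusted p under 0.05 there were 2 probes, 1 of *Sun1* and 1 of *Syne3*, both lower in the mutant, where 15.2% of all probes passed. For 3 probes the mutant and control arrays did not overlap, against 30.9% of all probes. The log2 fold change, mutant minus control, was negative for 16 probes and positive for 4, with a median of -0.02, beside 0.00 over all probes tested. These values are on the scale log2(intensity + 36.5), on which changes of dim probes appear smaller than they are. Of the negative values 11 belonged to 14 dim nesprin probes, and 12 of these 14 probes changed sign under 1 or more alternative. Probes of 1 gene are not independent, so the count of signs is a description only. The exact permutation test over 3 and 2 arrays cannot go below a p of 0.1 and was not used.

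**Figure D1:**
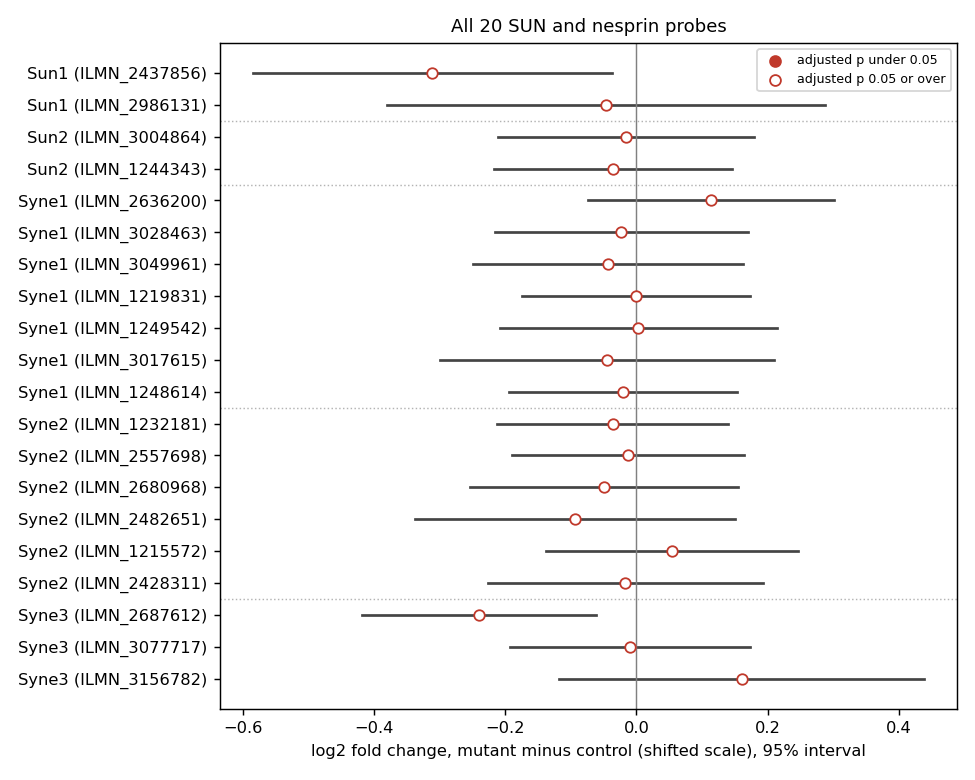
Log2 fold change, mutant minus control, on the scale log2(intensity + 36.5) for each of the 20 probes, grouped by gene, where points are estimates and lines are 95% intervals from limma. Every point is open, since no adjusted p was under 0.05, and the intervals of 1 *Sun1* probe and 1 *Syne3* probe lie wholly below 0.

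*Sun1* encodes one of the widely expressed SUN proteins, which also binds nuclear pores and telomeres. Its brighter probe (ILMN_2437856) gave intensities of 166.3, 171.3 and 207.9 in mutant replicates A to C, and of 209.6 and 259.5 in control replicates A and B. All mutant arrays were below both controls, but mutant array C lay just under control array A. The means were 182 ± 22.7 (SD, n = 3) and 235 ± 35.3 (SD, n = 2), a log2 fold change of -0.31 with a standard error of 0.12 and a 95% interval of -0.58 to -0.04 (unadjusted p = 0.0305, limma adjusted p = 0.254). This difference did not pass the adjusted threshold. With mutant array C alone against the controls the value was -0.14 (adjusted p = 0.899), and without control array B it was -0.18 (adjusted p = 0.757).

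The second *Sun1* probe (ILMN_2986131) read 13.1, 18.4 and 17.9 on the mutant and 9.4 and 28.6 on the control arrays. The controls enclosed all mutant values, and the log2 fold change was -0.05 with an interval of -0.38 to 0.29. The 2 *Sun1* probes were not shown to move differently (difference 0.26 on the log2 scale, diffSplice adjusted p = 0.658). Doubling the control mean of the dimmer probe would have moved its value by 0.42, outside this interval, and halving it by -0.27, inside it, so that a fall of that size was not detectable with this probe.

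*Sun2* encodes the other main SUN protein of somatic cells and can stand in for *Sun1* in part. Its brighter probe (ILMN_3004864) read 71.2, 70.1 and 72.7 on the mutant and 65.9 and 79.6 on the control arrays. The 3 mutant arrays lay close together, between the 2 controls. The log2 fold change was -0.02 with a 95% interval of -0.21 to 0.18 (adjusted p = 0.962). The other probe (ILMN_1244343) read 43.7, 43.2 and 37.8 on the mutant and 42.6 and 44.4 on the control arrays, and only mutant array C fell below both controls. Its log2 fold change was -0.04 with an interval of -0.22 to 0.15 (adjusted p = 0.890). A halving of the control mean would have given -0.58 and -0.46 for the 2 *Sun2* probes and a doubling 0.74 and 0.63, so changes of that size lay outside both intervals.

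**Figure D2:**
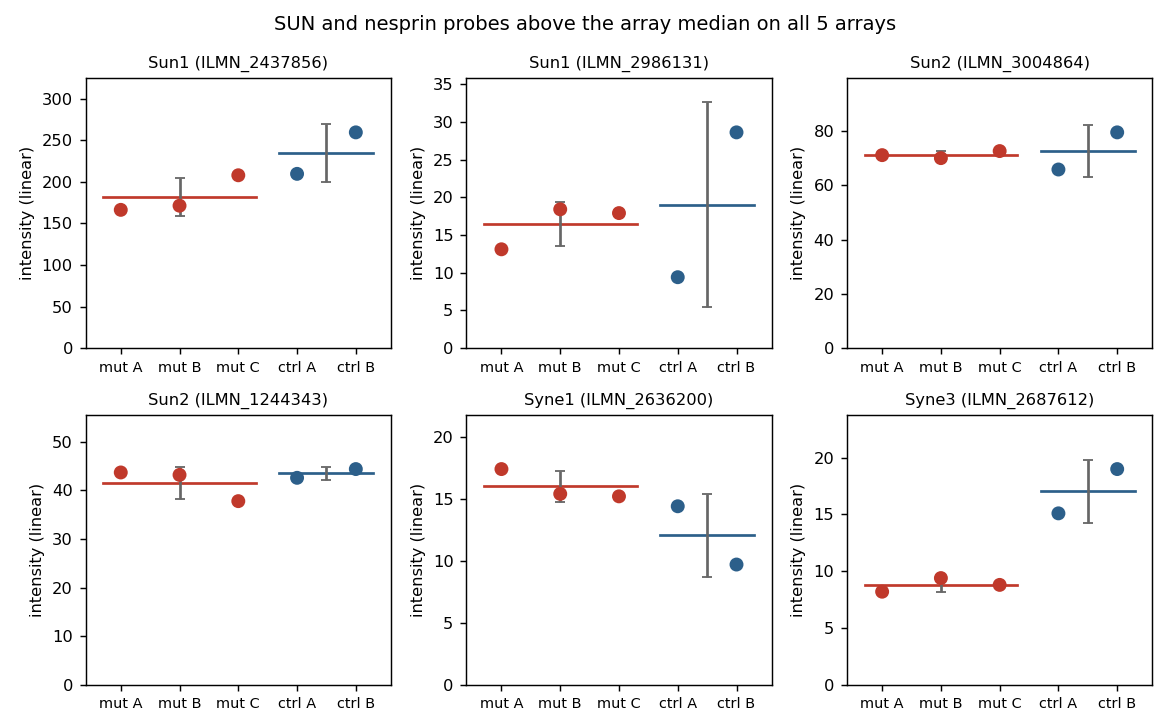
Background-corrected intensity on a linear axis from 0 for the 6 probes above the array median on all 5 arrays, with mutant arrays in red and control arrays in blue; horizontal lines are group means and grey bars are SD (n = 3 and n = 2). The *Sun2* arrays overlap at 65.9 to 79.6 for the brighter probe, and for the *Syne3* probe the mutant arrays lie at 8.2 to 9.4, below the controls at 15.1 and 19.0.

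Of the 16 nesprin probes, 2 were above the array median on all 5 arrays, and 16 of their 80 values were at or below 0. *Syne1* encodes nesprin-1, a giant actin-binding nesprin with many shorter isoforms. Only ILMN_2636200, of its 7 probes, was above the array median on all 5 arrays, at 17.4, 15.4 and 15.2 on the mutant and 14.4 and 9.7 on the control arrays. All mutant arrays were above both controls by a narrow margin. The log2 fold change was 0.11 with an interval of -0.07 to 0.30 (adjusted p = 0.591), and it was 0.09 with mutant array C alone. The remaining *Syne1* probes read between -0.6 and 7.8, and their mutant and control arrays overlapped.

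*Syne2* encodes nesprin-2, the other giant actin-binding nesprin. All 30 values of its 6 probes lay between -4.4 and 3.9, and 11 of them were at or below 0. For comparison, the 4 *Xist* probes on mutant arrays A and B and the 8 probes of the Y-linked genes *Eif2s3y*, *Kdm5d* and *Uty* on the other arrays gave 32 readings between -6.2 and 12.6, with a median of 1.2. The readings above 4.8 all came from the *Uty* probe ILMN_2907351 and the *Eif2s3y* probe ILMN_1215914. On mutant arrays A and B these probes read 19.3 and 11.3, and 10 and 10.4, so they did not clearly separate those arrays from the others. All 30 *Syne2* values lay within the range of -6.2 to 12.6, and also within it when these probes are left out. Its brightest probe (ILMN_1232181) read 3.6, 1.9 and 1.3 on the mutant and 3.9 and 2.6 on the control arrays, and the groups overlapped. The log2 fold changes of the 6 probes were -0.09 to 0.05, with a smallest adjusted p of 0.755. For the 4 probes with a control mean above 0, doubling or halving that mean would have given a value inside the 95% interval, so that a 2-fold change of *Syne2* was not detectable with them. For the other 2 probes the control mean was below 0.

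*Syne3* encodes nesprin-3, which binds plectin and through it intermediate filaments. Its brightest probe (ILMN_2687612) gave intensities of 8.2, 9.4 and 8.8 in mutant replicates A to C, and of 15.1 and 19.0 in the controls. The mutant arrays lay close together and all were below both controls, mutant array C among them. The means were 8.8 ± 0.60 (SD, n = 3) and 17.1 ± 2.76 (SD, n = 2). The 3 mutant readings lay within the range of the *Xist* and Y-linked readings given above while both controls lay above it. Without the *Uty* and *Eif2s3y* probes that set its top, that range ended at 4.8, below all 3 mutant readings. Since the mutant readings were this dim, no ratio is given. The log2 fold change was -0.24 with a standard error of 0.08 and an interval of -0.42 to -0.06 (unadjusted p = 0.0147, adjusted p = 0.166), which did not pass the adjusted threshold. With mutant array C alone it was -0.24 (adjusted p = 0.634).

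The other 2 *Syne3* probes, which match another transcript record, were dim and did not show the same pattern, but a 2-fold fall was not detectable with them. Halving the control mean of ILMN_3077717 would have moved its value by -0.05, inside its 95% interval. For ILMN_3156782 the control mean was below 0. The comparison of probes below therefore sets a brighter probe against dim ones, whose changes appear smaller on this scale. ILMN_3077717 read 1.5, 3.0 and 2.0 on the mutant and 4.1 and 0.8 on the control arrays, and the groups overlapped. ILMN_3156782 read -0.5, 1.6 and 10.3 on the mutant and 0.4 and -1.7 on the control arrays, so that mutant array C alone was high. The brightest probe differed from the other *Syne3* probes by -0.32 on the log2 scale (unadjusted p = 0.0171, diffSplice adjusted p = 0.222). ILMN_3156782 differed from the others by 0.29 (unadjusted p = 0.0285, adjusted p = 0.283). Over the 20 probes none differed from the other probes of its gene at an adjusted p of 0.05, against 2.64% of the 25000 probes tested in this way.

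**Figure D3:**
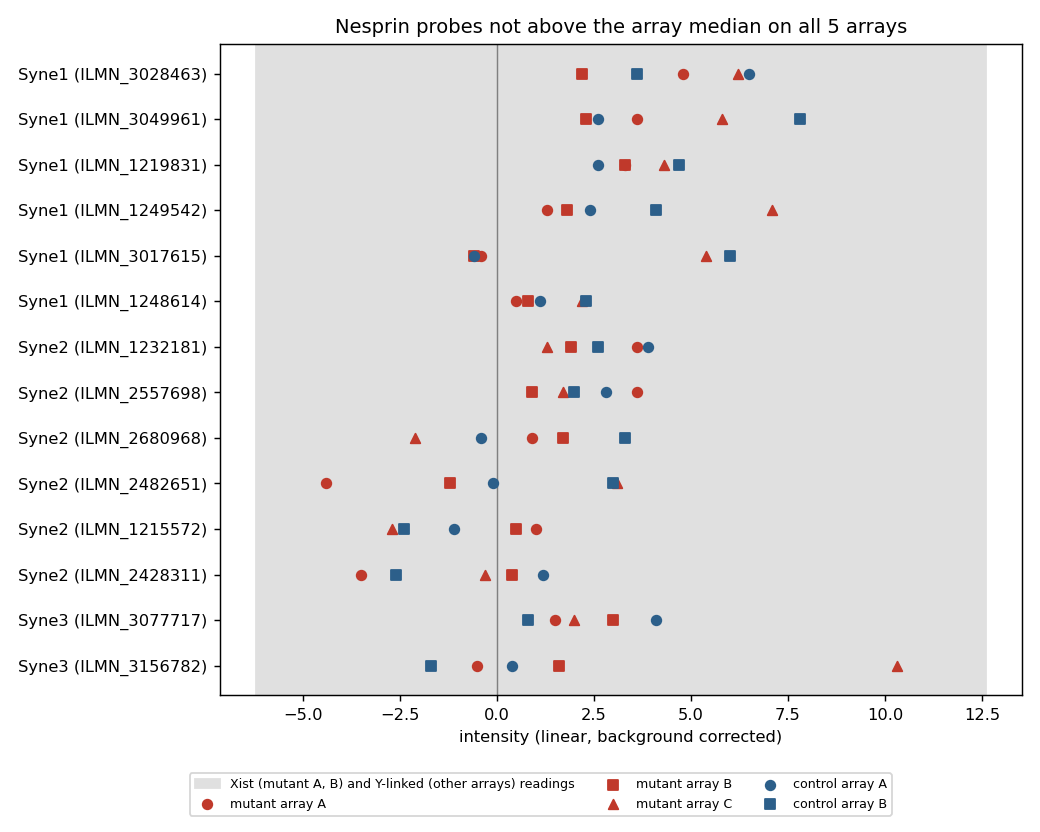
Background-corrected intensity on a linear axis for the 14 nesprin probes that were not above the array median on all 5 arrays, 1 row per probe, with mutant arrays in red and control arrays in blue. The grey band spans the readings of -6.2 to 12.6 given by all *Xist* probes on mutant arrays A and B and all *Eif2s3y*, *Kdm5d* and *Uty* probes on the other arrays, and all 70 values lie within it. The part of the band above 4.8 rests on the *Uty* probe ILMN_2907351 and the *Eif2s3y* probe ILMN_1215914, which read no lower on mutant arrays A and B than 10.

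The 14 dim nesprin probes had log2 fold changes of -0.09 to 0.16 and adjusted p-values of 0.617 or more. For the 11 of them with a control mean above 0, a doubling of it would have moved the value by at most 0.17 on this scale.

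The genes whose brightest probe followed each member most closely over the 5 arrays were listed as a description. They share the arrays and their scaling, and with 5 points many genes reach a high correlation. For *Sun1* they were *Selenom*, *Dot1l* and *Gemin6*, with a Pearson r of 0.999 each, and 111 of 9524 genes had an r above 0.95. For *Sun2* they were *Kat2b*, *Pmepa1* and *Pfdn1*, and for *Syne1* they were *Exosc8*, *Tspoap1* and *Dgcr8*. *Syne3* was followed by *Sppl3*, *Rab12* and *Rnf185*, and 281 genes had an r above 0.95 with it. The brightest *Syne2* probe was followed by *Cfap69*, *Dancr* and *Rpl4*, although all its values were near background.

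The same comparison was made for genes that work with the complex, each by its brightest probe, with adjustment over 19057 genes. By this measure none of the 5 SUN and nesprin genes passed the adjusted threshold, against 5.81% of all genes. None of the 6 other SUN and KASH genes passed either (*Sun3*, *Sun5*, *Spag4*, *Syne4*, *Kash5* and *Lrmp*, the last an older symbol of *Irag2*). None had an unadjusted p under 0.05, where 1725 of the 19057 genes were higher and 1671 lower at that limit. These 6 genes were dim, with readings of 0.7 to 25.6. Their log2 fold changes were -0.09 for *Lrmp* to 0.13 for *Spag4*, with a median of -0.00 beside -0.00 over all genes.

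Of the 11 measured nuclear partners, 3 were higher in the mutant and none was lower, where 3.15% of all genes were higher and 2.66% lower. Their median log2 fold change was 0.19. The partner lists were chosen with earlier results of these data known, so these counts are a description and were not tested as a set. *Lmna*, which encodes the A-type lamins that SUN proteins bind, read 323.2, 308.7 and 371.5 on the mutant and 173.7 and 179.3 on the control arrays. All mutant arrays were well above both controls, with a log2 fold change of 0.80 ± 0.10 (SE, adjusted p = 0.00541). *Tmem201*, which encodes the inner nuclear membrane protein Samp1, rose by 0.78 (adjusted p = 0.00508), although its second probe read near 0 and the mean of both probes gave 0.37 (adjusted p = 0.0321), and *Tmem43*, which encodes the emerin-binding protein LUMA, by 0.62 (adjusted p = 0.00898). *Emd*, which encodes emerin, read 148.8, 167.5 and 160.2 against 120.5 and 104.5, a value of 0.39 that did not pass (adjusted p = 0.05003). Its second probe had a value of 0.25 (limma adjusted p = 0.221 over all probes). *Lemd2* had a value of 0.21 (adjusted p = 0.225) and *Tor1aip2* of 0.19 (adjusted p = 0.303). With mutant array C alone *Lmna* was at 0.94, *Tmem201* at 0.78 and *Tmem43* at 0.64, and all 3 passed. Without control array B none of the 3 passed, with adjusted p-values of 0.0542 for *Lmna*, 0.0560 for *Tmem201* and 0.0700 for *Tmem43*.

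Of the 18 measured cytoplasmic partners, 2 were higher and 1 was lower, where 3.15% of all genes were higher and 2.66% lower. Their median was 0.03, beside -0.00 over all genes. This list too was chosen with earlier results of these data known. *Cdc42*, a small GTPase that shapes the actin cytoskeleton, was higher by 1.17 on the log2 scale by its brightest probe (adjusted p = 0.0226). Its other 3 probes read between -9.1 and 3.3 and did not pass, but they were too near background to bear on this value. The brightest probe differed from the others by 1.10 (diffSplice adjusted p = 0.00299), so the value rests on 1 probe. *Dync1h1*, the dynein heavy chain that nesprins help to recruit to the nucleus, rose by 0.60 (adjusted p = 0.0387), but kept that call under only 8 of 16 alternatives. *Ndel1*, a dynein regulator, fell by 0.59 (adjusted p = 0.0172), and the mean of its 2 probes gave -0.35 (adjusted p = 0.0389). *Akap9* (0.21), *Nde1* (-0.23) and *Akap6* (0.19), the last an anchor that nesprin-1 holds at the nucleus in muscle, did not pass. *Klc1*, a kinesin light chain named here after its values were seen, had 0.14 by its brightest probe and 1.70 by ILMN_2671411 (adjusted p = 0.00264 over all probes). Its other probes had 1.37, 0.95 and 0.63 and did not pass (limma adjusted p = 0.0641, 0.0907 and 0.151). Neither the brightest probe nor ILMN_2671411 was shown to differ from the other *Klc1* probes (diffSplice adjusted p = 0.107 and 0.160). Of the 3 cytoplasmic partners, none passed without mutant array B or without control array B, and 1 passed without mutant array A or without control array A. With mutant array C alone 2 passed, and *Cdc42*, at 0.89, did not (adjusted p = 0.0871). Whether the partner genes differed from the SUN and nesprin genes was not tested.

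**Figure D4:**
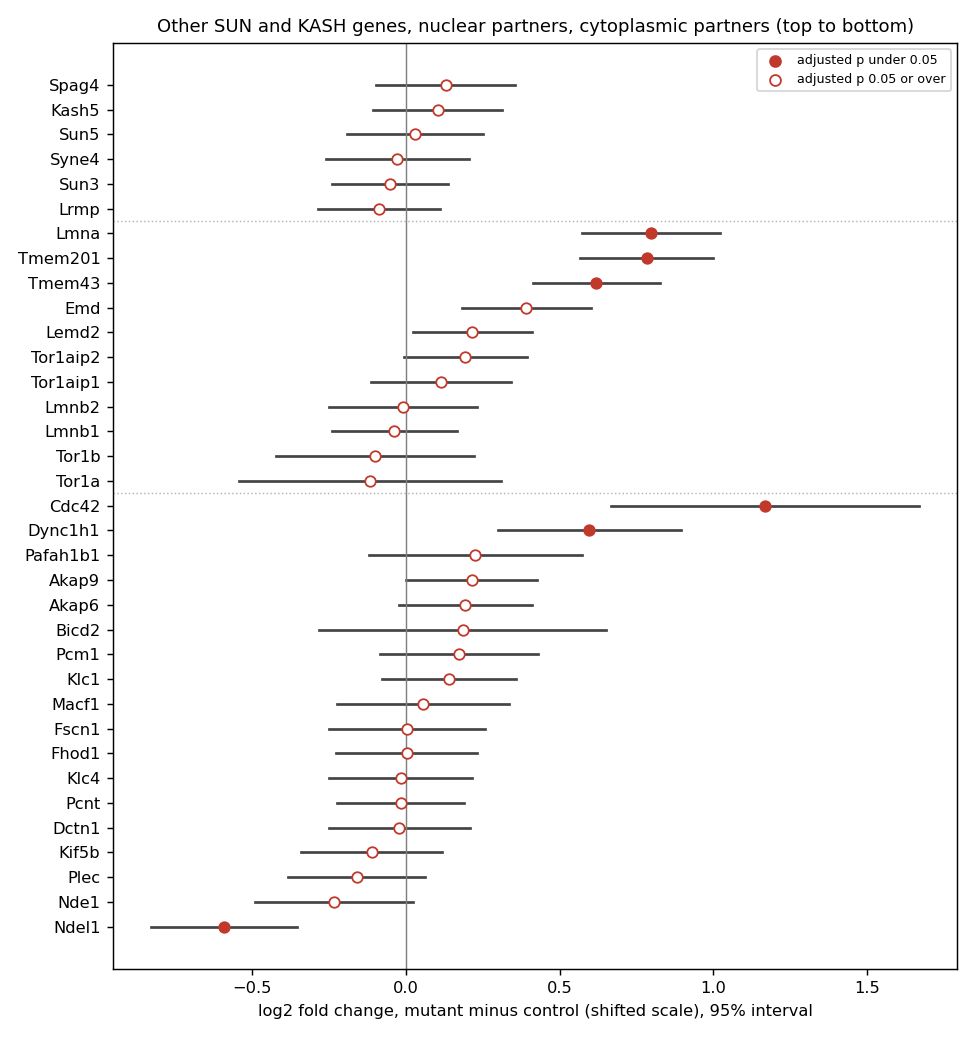
Log2 fold change, mutant minus control, on the scale log2(intensity + 36.5) by the brightest probe of each measured partner gene, with 95% intervals from limma; dotted lines part the other SUN and KASH genes, the nuclear partners and the cytoplasmic partners, and filled points have an adjusted p under 0.05. The filled points are *Lmna*, *Tmem201*, *Tmem43*, *Cdc42* and *Dync1h1* on the higher side and *Ndel1* on the lower side.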

How the data were processed

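RNA of newborn lenses was hybridised to 5 Illumina MouseWG-6 v2.0 arrays. The authors used lumi for background correction and a Rank Invariant normalization before they deposited 1 linear intensity per probe and array. For tool versions and a genome build, the sources used here give none. A constant of 36.5 was added to each deposited intensity before log2 was taken, which made the lowest value 16. Of 45281 probes, 34885 had 1 annotated gene, and all of these were tested, with no filter on dim probes. Groups were compared with limma 3.58.1 in R 4.3.3 (lmFit, eBayes, two-sided, no block, Benjamini-Hochberg, threshold 0.05). Probes of 1 gene were compared with diffSplice. Genes were represented by the probe with the highest mean intensity over the 5 arrays, 19057 in all; taking the mean of log2 values instead was tried after the data were seen.

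The members, lists and tests were chosen with earlier results of these data known. Named genes are all members, the targeted gene, *Xist* and *Eif2s3y*, in each partner list those past the threshold and up to 3 more with the smallest p, and the 3 genes most correlated with each member among genes brighter than the median. Of 126 listed genes, 11 had no named probe, *Lemd3* and *Klc2* among the partners. The replicates are separate samples by their labels, and p-values measure the spread between them; the number of arrays limits the precision. The code was tested on simulated data. Alternatives covered normalization, filter, added constant, moderation, array weights, block, thresholds of the methods and left-out arrays. Figures used Python 3.11.15 and matplotlib 3.10.9.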

Additional observations from a re-analysis of the deposited data

How the results depend on the processing

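No SUN or nesprin probe passed the adjusted threshold under any of 17 alternatives (smallest adjusted p-values of 0.0515 to 0.496), no SUN or nesprin gene under 16, and no probe differed from the others of its gene under 11. Of 306 log2 fold changes of member probes under alternatives, 272 kept their direction, among them all of ILMN_2437856 (*Sun1*, -0.44 to -0.14), ILMN_2687612 (*Syne3*, -0.41 to -0.12) and ILMN_2636200 (*Syne1*, 0.04 to 0.19). The other 34 changed sign, 31 of them on nesprin probes near background, and the cause was not tested.

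With mutant array C alone against the controls, values changed sign to 0.00218 for ILMN_3004864 (*Sun2*), to 0.0237, 0.0189, 0.101, 0.0403 and 0.0234 for ILMN_1219831, ILMN_1248614, ILMN_3017615, ILMN_3028463 and ILMN_3049961 (*Syne1*), and to -0.0397, 0.0181 and 0.0626 for ILMN_1215572, ILMN_2428311 and ILMN_2482651 (*Syne2*). ILMN_1219831 also changed to 0.00822 with quantile normalization, 0.0112 with median centring and 4.27e-04 with a constant of 16, and ILMN_3077717 (*Syne3*) to 0.0020 with median centring. ILMN_1249542 (*Syne1*) changed to -0.0343 with array weights.

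Leaving out 1 array at a time, values ranged from -0.30 to 0.21 for ILMN_2986131 (*Sun1*), from -0.11 to 0.0745 for ILMN_3004864, from -0.0379 to 0.0375 for ILMN_1219831, from -0.0430 to 0.00228 for ILMN_1248614, from -0.0628 to 0.0402 for ILMN_1249542, from -0.17 to 0.0770 for ILMN_3017615, from -0.0734 to 0.0273 for ILMN_3028463 and from -0.13 to 0.0463 for ILMN_3049961. For *Syne2* they ranged from -0.0939 to 0.0594 for ILMN_2428311, from -0.0414 to 0.00889 for ILMN_2557698 and from -0.12 to 0.0210 for ILMN_2680968, and for ILMN_3077717 from -0.0706 to 0.0517.

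The number of nuclear partners past the threshold, 3, ranged from 0 (without control array B) to 3 when 1 array was left out. It was 4 when the brightest probe was chosen by the mean of log2 values, an alternative chosen after the data were seen, under which *Emd* passed (adjusted p = 0.0498). The number of cytoplasmic partners, 3, ranged from 0 to 3 when 1 array was left out, and was 1 with a constant of 16 and 1 with the lowest value set to 64. *Dync1h1* lost the threshold under 8 of 16 alternatives, quantile normalization (adjusted p = 0.0618) and array weights (0.0502) among them, *Cdc42* under 6 and *Ndel1* under 4. *Tor1aip2* changed sign to -0.0251 when all probes of a gene were averaged.

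The replicate letters do not pair the arrays by any label, and deviations of same-letter arrays correlated at -2.80e-04 (A) and 0.0203 (B). With the letter as a replicate block, 2227 probes passed in place of 1494, ILMN_2437856 was at -0.39 (adjusted p = 0.0515) and ILMN_1249542 changed sign to -0.0628. Without moderation 4 probes passed. Without control array B 420 passed. Signals near background limit all statements on *Syne1*, *Syne2* and *Syne3*.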
